A study of Mus musculus with 4 samples.

Results

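The 32 genes described here encode glucose transporters, the enzymes of glycolysis, lactate dehydrogenases, lactate transporters, and the enzyme and kinase at the entry to mitochondrial pyruvate oxidation. They were taken as a named list and not by a limit on their levels, but earlier results of these data were known when it was chosen. They are 32 of the 31053 gene identifiers in the count matrix of a single-cell library from mouse tibia. All 32 had at least 1 UMI, a unique molecular identifier that stands for 1 captured transcript. Aldoa was listed under 2 identifiers, which were summed, and the second of them held 1 UMI.

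The library was made from cells of the proximal and distal tibia of 1 male mouse at postnatal day 6 (P6), with 2 tibiae pooled. The mouse carried Col10a1Cre, active in hypertrophic chondrocytes (HCs), together with the Rosa26-Tdtomato reporter that marks HCs and their descendants. By its label it also carried Irx3 +/Δ and Irx5 +/-, and served as the control heterozygous for Irx3/5. The paper writes the Irx3 allele as +/ΔHC, that is, deleted through Col10a1Cre in HCs, so the state of this allele can differ between HCs or their descendants and the other cells, whereas Irx5 +/- is shared by all. No wild-type library was compared. The 4 sequencing entries were counted together as 1 library. With no replicate animal there is no test, p-value or standard error at any value below, and each interval is a 95% interval that covers counting error alone.

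Glycolysis splits glucose into pyruvate and yields ATP without oxygen. Lactate dehydrogenase turns pyruvate into lactate, which monocarboxylate transporters carry out of the cell, whereas pyruvate dehydrogenase passes pyruvate on to the mitochondria. Growth plate cartilage has no blood vessels, and its chondrocytes are known for their reliance on glycolysis and on the oxygen-regulated factor HIF-1. Osteoblasts, marrow cells and red cell precursors lie close to blood.

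The matrix holds 14181 barcodes with 500 to 85279 UMIs each, and 8255 cells passed the filters with a median of 13957 UMIs. They formed 32 clusters. Marker genes named 21 classes of at least 50 cells, called X-like, with medians of 6694.5 to 35015 UMIs per cell. The 32 genes and the other pathway genes described below were kept out of the genes used for clustering. A further 4 clusters with 559 cells (6.77%) stayed unnamed. In 3 of these, collagen II stood beside blood cell markers, and Scrublet marked 177 of the 559 cells as doublets. Leading genes of the HC-like cluster included Lcn2 and S100a9, which mark neutrophils, beside Ibsp, Spp1 and Col10a1. Col2a1, the collagen gene of chondrocytes, was counted at 256 to 3156 CPM (a class's UMIs of the gene, scaled to a common total of 1000000 UMIs) in the named classes outside cartilage, against 45177 CPM over the chondrogenic cells. The part of such free RNA in low levels of the genes below was not tested.

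The glycolysis and lactate genes took their largest share of transcripts in chondrocytes. Summed over the list, they made up 1.33% of all UMIs in the pre-HC-like cells, 1.08% in the maturing, 1.02% in the proliferating and 0.415% in the resting chondrocyte-like cells. In the HC-like cells the share was 0.774%. The 2 pre-HC-like clusters differed, with 1.58% where Espn and Egln1 led and 1.18% where Ihh and Pth1r led, and the latter lay below the maturing cluster led by Gdf10 and Hes5 at 1.26%. The other maturing cluster, led by F3 and Il11, had 0.765%. The pre-HC-like cluster led by Espn and Egln1 had no pre-HC marker among its leading genes. It was named by the mean level of the listed markers alone. Its Col10a1 level was 180 CPM, against 1194 CPM in the cluster led by Ihh and Pth1r. Marrow stromal-like cells had 0.271%, immature osteoblast-like cells 0.309% and mature osteoblast-like cells 0.289%. Outside the skeleton, promyelocyte-like cells had the highest share at 0.6202% and late erythroblast-like cells the lowest at 0.114%. In the late erythroblast-like cells haemoglobin transcripts took 29.9% of the UMIs. With haemoglobin, collagen, ribosomal protein and mitochondrial genes left out of the total, their share was 0.238%, again the lowest of the 21 classes, against 2.17% in the pre-HC-like cells.

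Single cells differed in the same way. In pre-HC-like cells the quartiles over cells were 1.15% and 1.62%, and in immature osteoblast-like cells 0.246% and 0.344%, so these ranges did not overlap. The resting chondrocyte-like cells, with quartiles of 0.249% and 0.527%, overlapped the osteogenic classes and lay below the lower quartile of the maturing cells, 0.728%.

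**Figure D1:**
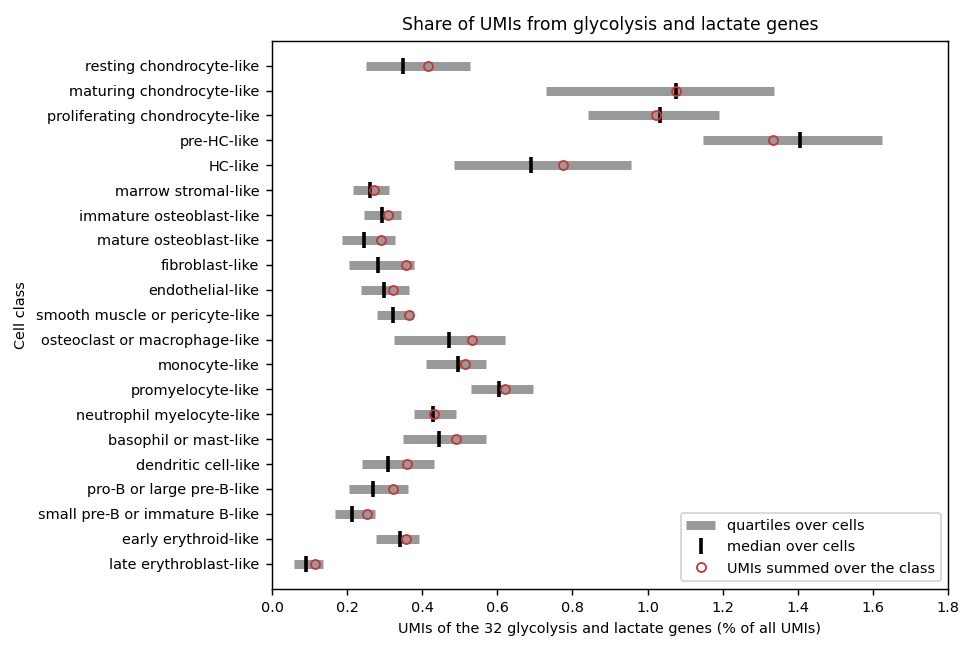
Share of all UMIs that came from the 32 glycolysis and lactate genes in 21 cell classes (percent). Grey bars span the quartiles over cells, black marks are medians over cells and red circles the share of UMIs summed over the class. Maturing, proliferating and pre-HC-like chondrocytes reach 1.02% to 1.33%, and the 3 osteogenic classes lie between 0.271% and 0.309%.

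A few enzymes carried most of these transcripts. Gapdh gave 24.4% of the list's UMIs in chondrogenic cells, Ldha 14.3% and Pgk1 12.9%. Together with Pkm, Tpi1, Pgam1, Aldoa and Eno1 they made up 89.8%. In osteogenic cells Pgk1 gave 5.49% and Gapdh 28.8%. Because a UMI is counted once per transcript at its 3′ end, levels of different genes in CPM need no correction for length.

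Of the 32 genes, 28 reached 10 CPM in at least 1 of the 21 classes. Among these, 15 had their highest level in a chondrogenic class, 9 of them in the pre-HC-like cells. The other 13 were highest elsewhere, 4 of them in early erythroid-like and 3 in neutrophil myelocyte-like cells. The classes in which all other genes were highest were not counted, so these numbers describe the list alone. The genes under 10 CPM in every class were Pfkfb1 and Pfkfb2, which make an activator of phosphofructokinase, the muscle phosphoglycerate mutase Pgam2 and the neuronal enolase Eno2. The highest level among them was 7.68 CPM, for Eno2 in osteoclast or macrophage-like cells.

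**Figure D2:**
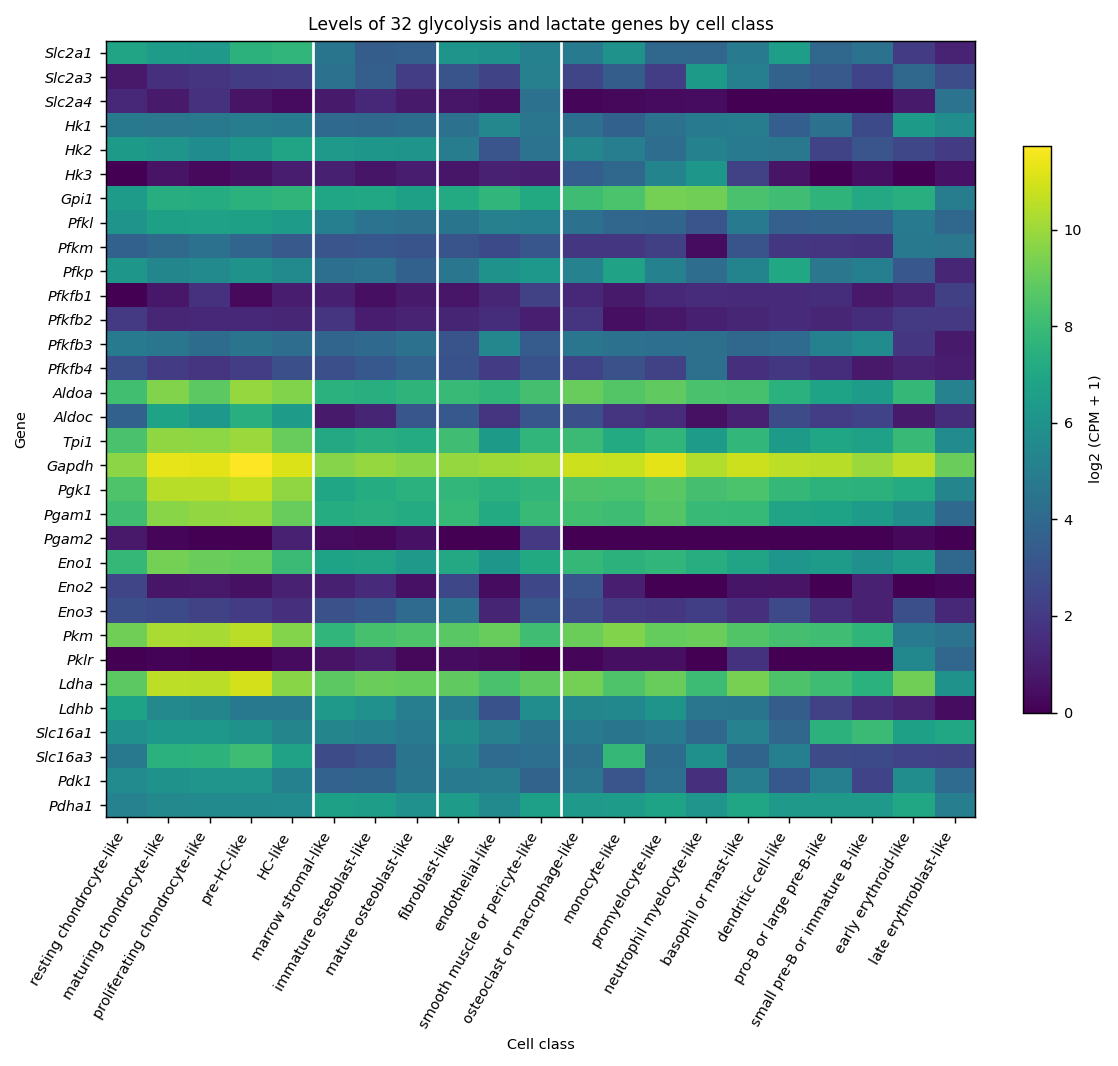
Levels of the 32 genes (rows, in pathway order) in 21 cell classes (columns), as log2 of CPM plus 1. White lines part the chondrogenic, osteogenic, other stromal and blood classes. Gapdh runs from 539 CPM in late erythroblast-like to 3419.5 CPM in pre-HC-like cells, and Pklr reaches 10 CPM in the 2 erythroid columns.

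HIF-1 binds DNA at a short core, and the promoters were searched for its forms ACGTG and GCGTG on both strands. The search covered 300 bases around each gene start in RefSeq (GRCm38.p6), and a CACGTG counts as 2 overlapping matches. Windows were found for 30 of the 32 genes. Either form occurred in 35 of their 49 windows (71.4%), against 43.8% of all 32851 windows. The form ACGTG occurred in 20 of them (40.8%), against 19.6% of all. Some windows of the same gene overlap and share a match, as in Aldoa, Eno1 and Pfkm. Counted by gene, 25 of the 30 had either form and 16 had ACGTG, and no such share was computed over all genes. Their median share of G and C was 57.3%, against 52.7%. A match is a run of letters and not a measured binding site. The windows of Pgk1 (chrX:106186850-106187149, plus strand), Ldha (chr7:46845554-46845853, plus), Slc2a1 (chr4:119108495-119108794, plus), Slc16a3 (chr11:120948817-120949116, plus) and Tpi1 (chr6:124814109-124814408, minus) are shown, with matches in capitals, as examples that differed in their matches:
Pgk1: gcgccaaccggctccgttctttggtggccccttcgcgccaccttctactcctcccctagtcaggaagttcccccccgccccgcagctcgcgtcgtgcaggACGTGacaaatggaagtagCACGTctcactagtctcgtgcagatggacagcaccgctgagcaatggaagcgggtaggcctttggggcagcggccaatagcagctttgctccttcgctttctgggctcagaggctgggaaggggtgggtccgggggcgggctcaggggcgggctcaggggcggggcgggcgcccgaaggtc
Ldha: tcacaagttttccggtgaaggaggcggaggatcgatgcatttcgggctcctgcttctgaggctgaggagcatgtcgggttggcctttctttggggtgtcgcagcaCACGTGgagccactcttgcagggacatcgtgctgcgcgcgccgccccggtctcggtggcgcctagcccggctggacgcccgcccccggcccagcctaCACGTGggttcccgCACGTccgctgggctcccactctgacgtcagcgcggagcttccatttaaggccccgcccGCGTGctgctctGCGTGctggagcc
Slc2a1: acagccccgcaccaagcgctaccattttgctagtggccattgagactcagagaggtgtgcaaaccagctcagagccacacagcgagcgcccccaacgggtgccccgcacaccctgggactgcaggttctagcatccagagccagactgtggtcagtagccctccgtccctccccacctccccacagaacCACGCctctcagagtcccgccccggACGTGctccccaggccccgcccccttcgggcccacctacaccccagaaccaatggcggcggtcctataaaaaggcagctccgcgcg
Slc16a3: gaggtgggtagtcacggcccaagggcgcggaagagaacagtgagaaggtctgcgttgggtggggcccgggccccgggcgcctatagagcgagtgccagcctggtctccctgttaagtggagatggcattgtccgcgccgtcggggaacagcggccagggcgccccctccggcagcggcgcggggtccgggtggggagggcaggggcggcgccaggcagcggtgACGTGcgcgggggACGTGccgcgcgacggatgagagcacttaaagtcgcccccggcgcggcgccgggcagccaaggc
Tpi1: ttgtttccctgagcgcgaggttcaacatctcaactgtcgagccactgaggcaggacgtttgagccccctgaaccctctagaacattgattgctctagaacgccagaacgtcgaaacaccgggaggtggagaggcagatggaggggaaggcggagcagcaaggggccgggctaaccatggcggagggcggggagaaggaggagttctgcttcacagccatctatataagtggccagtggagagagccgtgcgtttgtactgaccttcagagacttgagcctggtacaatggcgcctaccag

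The window of Ldha shown held 7 matches and its other window, at chr7:46846832-46847131, held 2, and those of Pgk1, Slc2a1 and Slc16a3 held 2, 2 and 2. The window of Tpi1 held 0. The 7 matches of Ldha were the most in any window of the list. Aldoc, which had the largest ratio of chondrogenic over osteogenic levels, is not shown, so these examples do not stand for the list. Whether matches bear on the level of a gene was not tested.

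A main route of glucose into cells is GLUT1, the product of Slc2a1 (chromosome 4, 119108711 to 119137983 in GRCm38). Slc2a1 was counted at 214 CPM (199 to 229.9) in HC-like, 185 CPM (178 to 192) in pre-HC-like and 116 CPM (98.1 to 136) in resting chondrocyte-like cells. The chondrogenic cluster with the highest level, 230.9 CPM, was not the HC-like one, so the order of these classes holds for pooled clusters only. Maturing cells had 87.2 CPM and proliferating cells 78.1 CPM, which did not differ beyond their intervals. The osteogenic classes had 10.02 to 22.7 CPM, below every chondrogenic interval. Outside the skeleton, dendritic cell-like cells had 93.8 CPM and endothelial-like cells 58.9 CPM.

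The other glucose transporters were found elsewhere. Slc2a3, encoding the high-affinity GLUT3, was highest in neutrophil myelocyte-like cells at 84.3 CPM (77.5 to 91.7), against 3.44 CPM in promyelocyte-like cells. With each cell thinned to 5000 UMIs, 33.4% and 1.28% of these cells had a UMI of Slc2a3 (54.96% and 6.12% before, at median depths of 11189 and 16913 UMIs). Slc2a4, the insulin-responsive GLUT4, had 21.2 CPM (17.8 to 25.03) in late erythroblast-like and 20.2 CPM (12.5 to 30.9) in smooth muscle or pericyte-like cells, which did not differ beyond counting error. Of 723 thinned endothelial-like cells 0 had a UMI of Slc2a4 (exact interval to 0.509%, and 0.369% before thinning). Such intervals limit cells with a UMI at this depth and not cells that express the gene.

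Hexokinases trap glucose as glucose 6-phosphate. Hk2 was the main form in the skeleton, with 114 CPM (103 to 125) in HC-like, 82.5 CPM in resting and 67.5 to 78.4 CPM in osteogenic cells. The pooled chondrogenic and osteogenic cells had 71.8 against 71.3 CPM of Hk2, a log2 ratio of 0.01 (-0.08 to 0.10). Hk1 took 94.8% (92.3% to 96.7%) of the hexokinase UMIs in early erythroid-like and 82.96% in endothelial-like cells, against 28.7% in pre-HC-like cells, where Hk2 took 70.8%. Hk3 was highest in the granulocyte line, with 72.2 CPM in neutrophil myelocyte-like and 38.4 CPM in promyelocyte-like cells, followed by 14.3 CPM in monocyte-like and 10.4 CPM in osteoclast or macrophage-like cells. After thinning, 29.3% of the neutrophil myelocyte-like cells had a UMI of Hk3 (53.3% before). Of 435 thinned pre-HC-like cells 0 had one (exact interval to 0.844%, and 1.38% before), at median depths of 11189 and 29175.5 UMIs.

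Gpi1, whose enzyme makes fructose 6-phosphate, was highest in promyelocyte-like cells at 623 CPM (605 to 641) and in neutrophil myelocyte-like cells at 585 CPM (567 to 604). The chondrogenic classes ran from 88.5 CPM in resting to 202 CPM in HC-like cells and overlapped the osteogenic classes, with 101 to 131 CPM.

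Phosphofructokinase commits sugar to glycolysis, and its genes differed by cell type. Pfkl, the liver form, took 64.1% of the family's UMIs in maturing and 57.6% in pre-HC-like cells, whereas in resting cells the platelet form Pfkp took 48.8% and Pfkl 43.8%. Pfkp took 86.7% (83.7% to 89.3%) in monocyte-like and 90.5% in dendritic cell-like cells. The muscle form Pfkm took 60.7% in late erythroblast-like and 41.2% in early erythroid-like cells. Pfkfb3, whose enzyme makes an activator of this step, had 50.2 CPM in small pre-B or immature B-like and 42.2 CPM in endothelial-like cells. The chondrogenic and osteogenic classes had 13.3 to 28.7 CPM. Pfkfb4 passed 10 CPM in neutrophil myelocyte-like cells, at 19.2 CPM, and had 12.1 CPM in mature osteoblast-like cells, the other class past that level.

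The enzymes from aldolase to enolase formed the core of the chondrocyte pattern. Pgk1, phosphoglycerate kinase (chromosome X, 106187100 to 106203699), makes ATP in this stretch. Its level was 366 CPM (334 to 400.2) in the resting cluster, 915 CPM (895 to 936) in the maturing cluster led by F3 and Il11 and 1735 CPM (1713 to 1757) in the maturing cluster led by Gdf10 and Hes5. The proliferating cluster had 1411 CPM. The pre-HC-like clusters had 1527 CPM where Ihh and Pth1r led and 1922 CPM (1884 to 1962) where Espn and Egln1 led. HC-like cells had 889 CPM (858 to 920.3). With 119 to 179.9 CPM in the osteogenic classes, every chondrogenic cluster lay above all of them.

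Aldoc, an aldolase best known from brain, showed the steepest step. It was counted at 168 CPM in pre-HC-like, 110.5 CPM in maturing, 89.9 CPM in HC-like and 11.3 CPM in resting cells. Marrow stromal-like cells had 0.784 CPM, immature osteoblast-like cells 1.32 CPM and mature ones 7.88 CPM. Its share of aldolase UMIs was 15.2% (14.6% to 15.8%) in pre-HC-like and 0.434% in marrow stromal-like cells. After thinning, 54.02% of pre-HC-like cells had an Aldoc UMI (92.4% before, median depth 29175.5 UMIs), against 0.647% of marrow stromal-like cells (0.946% before, median depth 10527 UMIs).

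The remaining enzymes of this stretch were highest in the same classes. Triose phosphate isomerase, Tpi1 (chromosome 6, 124810586 to 124814296), had 1021 CPM in pre-HC-like cells and 136 to 170.0 CPM in the osteogenic classes. Aldoa (chromosome 7, 126795234 to 126800751) had 941 against 164 to 199.7 CPM, and the mutase Pgam1 (chromosome 19, 41911923 to 41918660) 948 against 149 to 164 CPM. The enolase Eno1 (chromosome 4, 150236721 to 150248879) was highest in the maturing class, at 616 CPM, with 81.7 to 116 CPM in the osteogenic classes. Gapdh (chromosome 6, 125161715 to 125166467), which feeds NADH to lactate dehydrogenase, had 3419.5 CPM in pre-HC-like cells, but its 829 CPM in resting cells lay within the osteogenic range of 779.6 to 946 CPM. The muscle enolase Eno3 went the other way, with 20.9 CPM in fibroblast-like and 16.2 CPM in mature osteoblast-like cells, and at most 6.298 CPM in a chondrogenic cluster. Near-identical copies had few UMIs, as Eno1b had 0.0965% of the count of Eno1 and Gm3839 0.318% of that of Gapdh. Whether reads that fit both a gene and its copy were lost from the counts was not tested.

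Pyruvate kinase ends glycolysis. Pkm (chromosome 9, 59656368 to 59679375) had 1469.7 CPM in pre-HC-like and 754 CPM in HC-like cells, and 209 to 362 CPM in the osteogenic classes. The red cell and liver form Pklr had 43.1 CPM (37.5 to 49.2) in early erythroid-like and 13.8 CPM (11.1 to 17.04) in late erythroblast-like cells. In the other 19 classes it had at most 2.25 CPM. Pklr gave 60.5% of the pyruvate kinase UMIs of early erythroid-like cells. After thinning, 22.1% of these cells had a UMI of Pklr (66.7% before, median depth 35015 UMIs), and 0 of 435 pre-HC-like cells had one (exact interval to 0.844%, and 0% before, median depth 29175.5 UMIs).

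Lactate dehydrogenase is built from subunits of Ldha and Ldhb. Ldha (chromosome 7, 46841475 to 46855627), whose subunit favours lactate, was counted at 443 CPM in the resting cluster, 1029 and 1790.2 CPM in the maturing clusters and 1489.7 CPM in the proliferating one. The pre-HC-like clusters had 1957 and 2177 CPM and the HC-like one 797 CPM. The osteogenic classes had 438 to 525 CPM, close to the resting cluster. Ldhb, whose subunit favours pyruvate, was highest in resting cells at 112 CPM (94.6 to 132) and had 26.3 CPM in pre-HC-like and 25.9 CPM in HC-like cells. Its share of the lactate dehydrogenase UMIs was 20.2% (17.3% to 23.3%) in resting, 14.9% in marrow stromal-like and 1.27% (1.14% to 1.41%) in pre-HC-like cells.

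Glycolytic cells export lactate through MCT4, the product of Slc16a3 (chromosome 11, 120948480 to 120960868). Slc16a3 had 274 CPM (265 to 283) in pre-HC-like, 191 CPM in proliferating, 181 CPM in maturing and 109 CPM in HC-like cells. Resting cells had 25.7 CPM (17.8 to 35.9) and immature osteoblast-like cells 6.996 CPM (4.93 to 9.64). It was also high in monocyte-like cells, at 225 CPM (212 to 239). After thinning, 71.3% of pre-HC-like cells (97.9% before) and 62.1% of monocyte-like cells (79.8% before) had a UMI of Slc16a3, at median depths of 29175.5 and 8504.5 UMIs. Of 169 thinned pro-B or large pre-B-like cells 0 had one (exact interval to 2.16%), while 4.15% of this class had one before thinning, at a median depth of 7322 UMIs. MCT1, the product of Slc16a1, carries lactate both ways and was highest in small pre-B or immature B-like cells at 252 CPM and pro-B or large pre-B-like cells at 184 CPM. Slc16a3 took 80.8% of the UMIs of this pair in pre-HC-like, 29.8% in resting and 12.4% in marrow stromal-like cells.

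Pyruvate dehydrogenase lets pyruvate into the TCA cycle, and Pdk1 encodes a kinase that switches it off. Pdk1 had 68.99 CPM in proliferating, 68.3 CPM in pre-HC-like and 34.6 CPM in HC-like cells, and 12.03 to 22.6 CPM in the osteogenic classes. Pdha1 (chromosome X, 160122209 to 160138413), a subunit of the enzyme itself, had 36.3 to 50.03 CPM in the chondrogenic and 61.2 to 99.9 CPM in the osteogenic classes. All chondrogenic clusters lay below the osteogenic classes for Pdha1 and above them for Pdk1.

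Across the 21 classes, Pgam1 and Eno1 followed Pgk1 most closely, with Pearson correlations of log2 levels of 0.93 and 0.93, and Aldoa, Tpi1, Gapdh and Ldha had 0.86 to 0.88. Pklr and Slc2a3 had -0.48 and -0.37. Over the 8 chondrogenic and osteogenic classes Tpi1, Pgam1 and Pkm had 0.99, 0.99 and 0.99, whereas Hk2 had -0.15, Ldhb -0.52 and Pdha1 -0.74. These are descriptions, since the classes share 1 library and differ in depth.

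Chondrogenic cells were compared with osteogenic cells, the bone-forming cells and marrow stroma that include HC descendants. A gene was compared where it had at least 10 CPM on either side, and was counted as higher or lower where the ratio of levels, with 1 CPM added, was at least 2-fold. Of 23 genes compared, 15 were higher in the chondrogenic cells, as were 9% of all 8392 genes compared. Eno3 was the 1 lower gene, at 4.21 against 12.02 CPM, while 19.2% of all genes were lower. The median log2 ratio of the list was 1.68, against -0.25 over all genes.

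The largest ratios belonged to Aldoc, Slc16a3, Slc2a1 and Pgk1. The log2 ratio was 4.43 (4.17 to 4.68) for Aldoc, 3.699 (3.54 to 3.86) for Slc16a3, 3.16 (2.99 to 3.33) for Slc2a1 and 3.15 (3.096 to 3.201) for Pgk1. Tpi1, Eno1, Pgam1, Pfkl, Aldoa and Pkm followed with 1.95 to 2.501, and Pdk1, Gapdh, Ldha, Pfkp and Slc16a1 with 1.06 to 1.79. Hk1, Hk2, Gpi1, Pfkm, Pfkfb3, Ldhb and Pdha1 stayed within 2-fold, from -0.74 for Pdha1 to 0.85 for Pfkm.

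Cluster by cluster, 15 of the 23 genes had all 7 chondrogenic clusters above all 3 osteogenic classes, as did 7.3% of all genes compared. They included Hk1 and Pfkm but not Gapdh and Ldha, whose resting cluster reached the osteogenic range. Eno3 and Pdha1 had the opposite order, as did 13.3% of all genes. For some genes, among them Pfkm, Slc16a1, Eno3, Slc16a3 and Aldoc, the order lay within counting error. For Pfkm and Slc16a1 the lowest chondrogenic cluster had 8.71 and 39.1 CPM and the highest osteogenic class 8.51 and 38.95 CPM. Eno3 had 6.298 CPM in its highest chondrogenic cluster and 6.54 CPM in its lowest osteogenic class. Slc16a3 and Aldoc had 25.7 and 11.3 CPM in the resting cluster, and up to 21.9 and 7.88 CPM in the osteogenic classes. Clusters of 1 library are not replicates.

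Within cartilage, the maturing chondrocyte-like cells of the main clustering had more transcripts of lower glycolysis and lactate export than the resting ones. Leading genes of the resting cluster included Penk and Efemp1 but not Pthlh, the paper's example for this stage. Of 22 genes compared, 10 were higher in the maturing cells (5.86% of all genes) and 1, Ldhb, was lower (9.89% of all genes), with a median log2 ratio of 0.71 against -0.06 over all genes. The log2 ratio was 3.17 (2.501 to 3.85) for Aldoc, 2.77 (2.302 to 3.24) for Slc16a3, 1.96 for Pgk1 and 1.76 for Ldha. Gapdh, Pgam1, Eno1, Tpi1, Aldoa and Pkm had 1.08 to 1.600, and Ldhb -1.29 (-1.53 to -1.04). Glucose entry and the first steps did not share this order, with -0.40 for Slc2a1, -0.26 for Hk2 and -0.86 for Pfkp. The resting cells were shallower, with a median of 10718 against 19591.5 UMIs, and collagen took 13.6% against 8.11% of their UMIs. After thinning, 64.4% of resting and 94.4% of maturing cells had a UMI of Pgk1 (82.5% and 98.3% before), with medians of 1 and 7 per cell. The count of 10 higher genes became 1 with a minimum of 1000 genes per cell, 1 at a clustering resolution of 0.6 and 4 with 3000 variable genes. The maturing class then held 832, 1081 and 439 cells, against 1114, and the resting class 112, 161 and 100, against 120. The share of all genes past 2-fold under these settings is not given here.

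Between maturing and pre-HC-like cells, the list differed little apart from Slc2a1. The pre-HC-like class pools both clusters, and only the one led by Ihh and Pth1r had pre-HC markers among its leading genes. Of 22 genes compared, 1 was higher in the pre-HC-like cells (2.94% of all genes) and 0 were lower (4.45% of all genes). Slc2a1 had 185 against 87.2 CPM, a log2 ratio of 1.08 (0.99 to 1.16). The ratio was above 1 for 17 genes, with a median log2 ratio of 0.22 against -0.03 over all genes. Aldoc, Slc16a3 and Pfkp had 0.59 to 0.60, and Ldhb had -0.76 (-0.93 to -0.59). The count of 1 became 0 with at most 5% mitochondrial UMIs, at resolution 1.5 and without doublets, and 4 with 3000 variable genes. The pre-HC-like class then held 394, 466, 752 and 1122 cells, against 436. The share of all genes past 2-fold under these settings is not given here.

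Between pre-HC-like and HC-like cells, Ldha and the lactate exporter had the largest gaps, while Hk2 and Slc2a1 did not share them. Of 22 genes compared, 0 were higher in the HC-like cells (23.3% of all genes) and 2 were lower (5.61% of all genes). These were Ldha, at 797 against 2039 CPM and a log2 ratio of -1.35 (-1.41 to -1.299), and Slc16a3, at 109 against 274 CPM and -1.32 (-1.47 to -1.17). Tpi1, Pkm, Pdk1, Eno1, Pgk1, Aldoc and Pgam1 lay just inside 2-fold, with -0.995 to -0.86. Hk2 had 0.65 (0.49 to 0.82) and Slc2a1 0.21. The median was -0.58, against 0.49 over all genes. The HC-like class held 106 cells, of which 89 had more than 14 UMIs of WPRE, a sequence of the reporter. The count of 2 lower genes became 9 when haemoglobin, collagen, ribosomal protein and mitochondrial genes were left out of the total, and 0 with a minimum of 1000 genes, where 287 cells bore the HC-like name. That scaling moved the median of all genes by -0.25, more than the log2 ratio of Slc2a1. The share of all genes past 2-fold under these settings is not given here.

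Between HC-like and immature osteoblast-like cells, compared as whole classes, most of the list was lower in the osteoblast-like cells. Of 22 genes compared, 13 were lower there (15.3% of all genes) and 2 were higher (18.3% of all genes). The log2 ratio was -5.29 (-5.92 to -4.66) for Aldoc, -4.29 (-4.65 to -3.92) for Slc2a1, -3.79 (-4.22 to -3.36) for Slc16a3 and -2.54 (-2.65 to -2.43) for Pgk1. The other lower genes, Aldoa, Pfkl, Pgam1, Tpi1, Pdk1, Pkm, Gapdh, Eno1 and Pfkp, had -2.17 to -1.099. The higher genes were Slc2a3, at 10.6 against 3.37 CPM, and Ldhb, at 60.5 against 25.9 CPM. Hk2 had -0.63 and Ldha -0.60. The median was -1.18, against 0.07 over all genes. These ratios set whole classes side by side and do not follow descent. Only 68 of the 429 immature osteoblast-like cells (15.9%) passed the WPRE cutoff, against 89 of the 106 HC-like cells. Summed over the list, the share of UMIs was 0.320% in these 68 cells and 0.307% in the other 361. In the HC-like cells it was 0.774%.

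Between immature and mature osteoblast-like cells, 1 of 23 genes was higher in the mature cells (5.12% of all genes) and 1 was lower (14% of all genes). Slc16a3 had 21.9 against 6.996 CPM, a log2 ratio of 1.52 (1.07 to 1.96). Slc2a3 had 3.38 against 10.6 CPM, a log2 ratio of -1.405 (-1.92 to -0.89). Col2a1 moved with Slc16a3, at 2244 against 489.7 CPM, and the part of cartilage RNA in its level was not tested. The median log2 ratio was -0.11, against -0.43 over all genes. Scrublet marked 39 of the 462 mature and 11 of the 429 immature cells as doublets. Without doublets and at resolution 1.5, 0 genes were higher in the mature cells and more than 1 was lower. With 10 CPM added in place of 1, 0 genes were higher and 0 lower. The count of higher genes rose with no floor, and without haemoglobin, collagen, ribosomal protein and mitochondrial genes in the total. The share of all genes is not given for these settings.

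**Figure D3:**
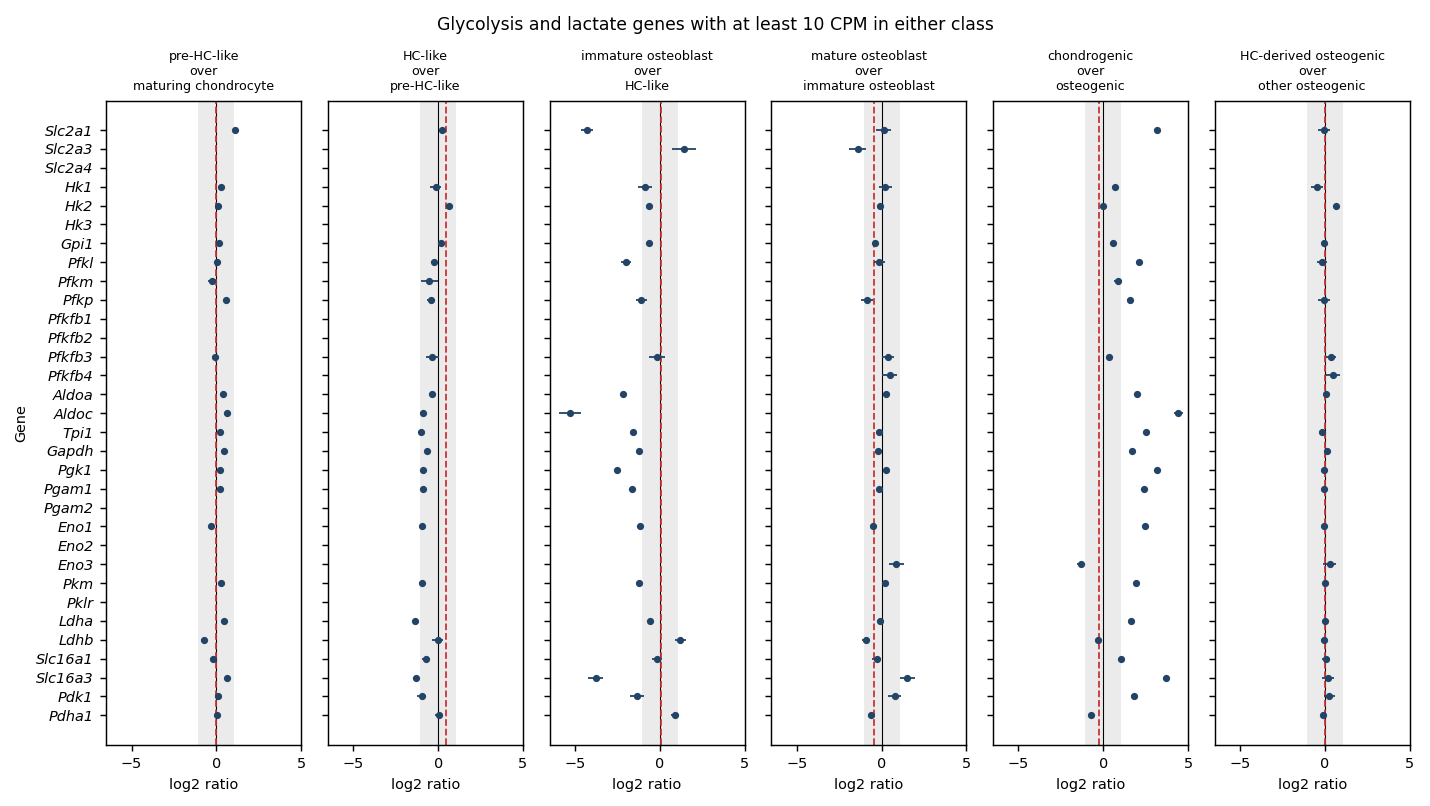
Log2 ratios of the genes with at least 10 CPM in either class, in 6 comparisons (panels), with 95% counting intervals as bars. The grey band marks less than 2-fold and the red dashed line the median over all genes compared. Between chondrogenic and osteogenic cells 15 genes lie right of the band, as did 9% of all genes. Between HC-derived and other osteogenic cells none lies outside it, and 1.95% of all genes did.

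Osteogenic cells that descend from HCs were told from the other osteogenic cells by more than 14 UMIs of the reporter sequence WPRE. There were 296 such cells of 1208, with a median depth of 15858 against 12777.5 UMIs. Among the 106 HC-like cells 89 passed this cutoff, and the paper names limits in detecting tdTomato mRNA. The other group can therefore hold HC descendants that fell below the cutoff. Of 22 genes compared, 0 passed 2-fold in either direction, while 1.95% of all genes did, and the median log2 ratio was -0.02, against -0.02 over all genes. Pgk1 had 156 against 161 CPM (-0.05, -0.17 to 0.06) and Ldha 500.1 against 494 CPM (0.02, -0.05 to 0.08). Hk2 had the largest ratio, at 96.1 against 61.1 CPM and a log2 ratio of 0.65 (0.49 to 0.80). It also had 87.1 against 56.1 CPM within the mature and 115 against 62.9 CPM within the immature osteoblast-like cells, log2 ratios of 0.62 (0.41 to 0.84) and 0.86 (0.55 to 1.17). Hk1 had the lowest ratio over all osteogenic cells, -0.45 (-0.82 to -0.09). Within the mature cells 0 of 22 and within the immature cells 0 of 20 genes passed 2-fold, against 1.78% and 5.84% of all genes. Counts of 0 among so few genes are near these shares and the 1.95% above, so they describe no trait of the list. The count within the immature cells became 1 without haemoglobin, collagen, ribosomal protein and mitochondrial genes in the total and 4 with no floor on levels. With no floor, genes with few UMIs were compared too. The share of all genes past 2-fold under these settings is not given here. Descent from HCs and the state of the Irx3 allele cannot be told apart here.

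In the granulocyte line, neutrophil myelocyte-like cells were set against the earlier promyelocyte-like cells, and Slc2a3 and Pdk1 had the largest gaps. Of 23 genes compared, 3 were higher (9.06% of all genes), namely Slc2a3 with a log2 ratio of 4.26 (3.81 to 4.72), Pfkfb4 with 2.06 and Slc16a3 with 1.74. A further 4 were lower (24% of all genes), namely Pdk1 with -2.697 (-3.27 to -2.13), Ldhb with -1.47, Tpi1 with -1.22 and Pfkp with -1.01. The median was -0.44, against -0.27 over all genes. The count of lower genes became 2 with at most 5% mitochondrial UMIs and 10 without haemoglobin, collagen, ribosomal protein and mitochondrial genes in the total. The share of all genes past 2-fold under these settings is not given here.

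In the red cell line, most of the list was lower in late erythroblast-like than in early erythroid-like cells. Of 18 genes compared, 12 were lower (40.9% of all genes) and 1 was higher (8.21% of all genes), with a median log2 ratio of -1.62 against -0.76 over all genes. Ldha had 62.9 against 586 CPM, a log2 ratio of -3.201 (-3.35 to -3.05), followed by Aldoa, Eno1 and Gpi1 with -2.63 to -2.44. Slc2a4 was the higher gene, at 21.2 against 0.798 CPM. Slc16a1, Hk1 and Pfkm stayed within 2-fold, with 0.31, -0.64 and -0.08. Haemoglobin took 29.9% of the UMIs of the late and 2.799% of those of the early cells.

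**Figure D4:**
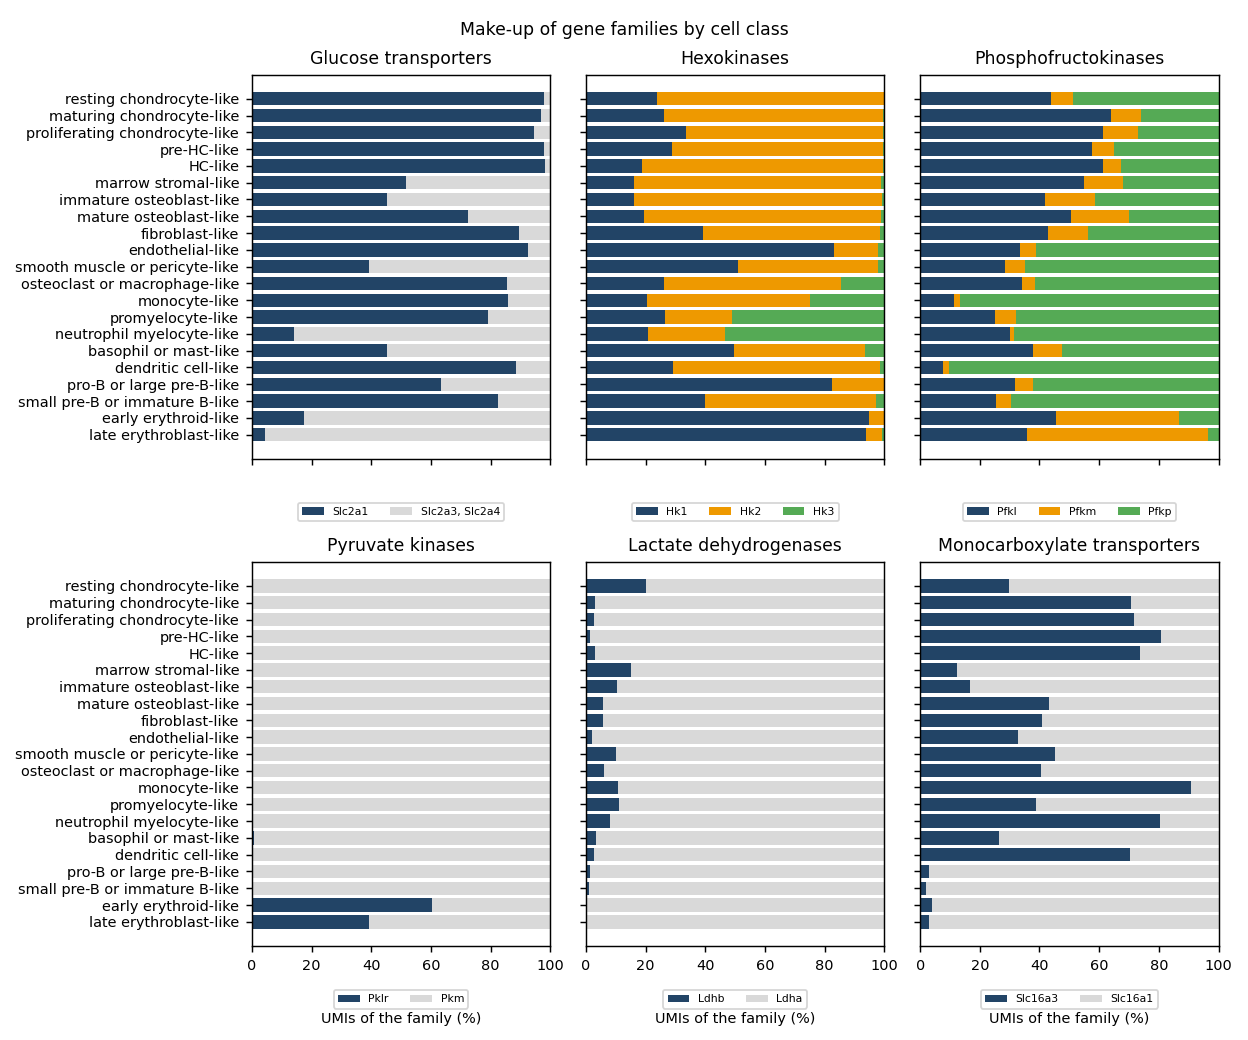
Make-up of 6 gene families in 21 cell classes, as percent of the UMIs of the family's listed genes. Slc2a1 makes up 94.5% to 98.3% of the glucose transporters in the chondrogenic classes, Hk3 takes 53.3% of the hexokinases in neutrophil myelocyte-like cells, and Pklr 60.5% of pyruvate kinase in early erythroid-like cells.

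Other genes of glucose and lactate metabolism, 45 in all, were compared in the same way. Between chondrogenic and osteogenic cells 3 of 20 compared were higher (9% of all genes) and 1 was lower (19.2% of all genes), with a median log2 ratio of -0.03 against -0.25 over all genes. The lower gene was Pdk4, a pyruvate dehydrogenase kinase, at 2.78 against 43.1 CPM. Between HC-like and pre-HC-like cells 5 of 20 were higher and 2 lower, beside 23.3% and 5.61% of all genes. Pdk4 had 10.7 against 1.46 CPM. Bpgm, which makes 2,3-bisphosphoglycerate, had 58.2 against 12.6 CPM there.

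Genes of the oxygen response, 20 in all, were compared in the same way. Between chondrogenic and osteogenic cells 10 of 18 were higher and 2 lower, beside 9% and 19.2% of all genes, with a median log2 ratio of 1.33 against -0.25. Bnip3, which takes part in the removal of mitochondria, had 426 against 21.5 CPM, and Ndufa4l2, which damps the respiratory chain, 904 against 53.6 CPM. Between maturing and resting cells 8 of 16 were higher (5.86% of all genes) and 0 were lower (9.89% of all genes). Among the higher ones were Bnip3 and Mif, with log2 ratios of 1.75 and 1.77. Between immature osteoblast-like and HC-like cells 2 of 18 were higher (18.3% of all genes) and 8 lower (15.3% of all genes), with the oxidase Ero1l at 21.2 against 415 CPM and Bnip3 at 15.9 against 297 CPM. Between mature and immature osteoblast-like cells 4 of 17 were higher (5.12% of all genes) and 2 lower (14% of all genes). P4ha2 had 210 against 43.5 CPM there, and Epas1 17.2 against 97.2 CPM. Between HC-derived and other immature osteoblast-like cells 0 of 18 were higher and 1 was lower, beside 5.84% of all genes past 2-fold in either direction. The lower gene was Ndufa4l2, at 6.899 against 32.1 CPM and a log2 ratio of -2.06 (-3.03 to -1.10). Between HC-like and pre-HC-like cells 3 of 18 were higher (23.3% of all genes) and 4 lower (5.61% of all genes). Among the lower ones was Car9, a carbonic anhydrase, at 1.69 against 21.2 CPM.

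Genes of the TCA cycle and the respiratory chain, 34 in all, were all compared. Between chondrogenic and osteogenic cells 0 of 34 were higher (9% of all genes) and 3 lower (19.2% of all genes), with a median log2 ratio of -0.41 against -0.25 over all genes. They took 0.357% of the UMIs of resting, 0.485% of maturing, 0.494% of pre-HC-like, 0.642% of HC-like and 0.744% of immature osteoblast-like cells. The glycolysis and lactate genes had 2.701 UMIs for each UMI of these genes in pre-HC-like and 2.22 in maturing cells, but 1.16 in resting, 1.21 in HC-like, 0.404 to 0.472 in osteogenic and 0.175 in late erythroblast-like cells.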

How the data were processed

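Single-cell RNA was measured in 1 library of P6 tibia cells, deposited by the authors as a count matrix of UMIs per gene and barcode, which is not normalized. Per the submitters' notes, reads were counted with Cell Ranger 3.1.0 on mm10. The sources used here do not give the annotation release. The matrix total was 158281984 UMIs. The 4 deposited entries were treated as 1 library, so there are no replicates. The genes and lists were chosen with earlier results of these data known, and the limits for naming clusters were set after clusters had been seen.

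Barcodes were kept from 1600 detected genes upward, if mitochondrial UMIs did not exceed 10% and ribosomal protein UMIs 50%. They were clustered with scanpy 1.11.5 (2000 variable genes without the listed pathway genes, 30 components, 20 neighbours, resolution 1). The 588 barcodes that Scrublet called doublets (4.15%) were not removed. Clusters were named from 22 marker lists, and chondrocyte and osteoblast stages from 8.

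UMIs were summed per class as CPM with exact Poisson intervals. Shares have exact Clopper-Pearson intervals and log2 ratios delta-method intervals. Thinning drew 5000 UMIs per cell, leaving out shallower cells. UMIs remove copies made by PCR, and intervals and limits still cover counting error alone. All 32 genes were described. Genes of the other lists were named only from the up to 3 per comparison with the largest change past 2-fold, and not all of these are given. The comparisons of maturing with resting, neutrophil myelocyte-like with promyelocyte-like, late with early erythroid cells and within HC-derived stages were added after the data were seen. Code was tested on simulated data. Gene coordinates are from GENCODE M21 (GRCm38), which matched 30934 of 31053 identifiers.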

Additional observations from a re-analysis of the deposited data

How the results depend on the processing

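No paired analysis was possible because the series is 1 library, so no replicate could be left out or blocked. Over 11 alternatives, 675 of 677 values of the ratios that passed 2-fold kept their direction and 618 also stayed past 2-fold. These tallies include values that could not reverse. With no floor the ratios are the same by construction, and adding 10 CPM cannot change a direction. The count of genes higher in chondrogenic than in osteogenic cells ran from 14 to 16 and that of genes lower in immature osteoblast-like than in HC-like cells from 11 to 13. The exceptions in direction were Slc2a3 in late over early erythroid cells (0.13 with a minimum of 1000 genes) and Pfkp in neutrophil myelocyte-like over promyelocyte-like cells (0.15 with at most 5% mitochondrial UMIs). The following counts moved by more than 1.5 times, and the cause was not tested. Like the ranges above, they are given without the share of all genes under the same setting, so they show only how the list's counts moved. With a minimum of 1000 genes, 0 genes were lower in HC-like than pre-HC-like cells, 1 higher and 0 lower in maturing than resting cells, and 2 higher in late erythroblast-like cells. With at most 5% mitochondrial UMIs, the values were 4 lower in HC-like, 2 lower in maturing, 0 higher in pre-HC-like and 2 lower in neutrophil myelocyte-like cells. Resolution 0.6 gave 1 higher and 0 lower in maturing cells. Resolution 1.5 gave 0 higher in pre-HC-like, 0 higher and 4 lower in mature osteoblast-like, and 2 lower in chondrogenic cells. With 3000 variable genes, 4 were higher and 0 lower in maturing and 4 higher in pre-HC-like cells. Without doublets, 0 were higher in pre-HC-like, 0 higher and 3 lower in mature osteoblast-like and 2 lower in chondrogenic cells. With the genes allowed in clustering, 3 were lower in mature osteoblast-like cells. Leaving haemoglobin, collagen, ribosomal protein and mitochondrial genes out of the total gave 9 lower in HC-like, 10 lower in neutrophil myelocyte-like, 3 higher in mature osteoblast-like, 3 lower in chondrogenic and 1 past 2-fold in HC-derived immature cells. It moved the median log2 ratio of all genes by -0.25, -0.42, 0.15 and 0.33 in the HC-like, neutrophil, mature osteoblast-like and late erythroblast-like comparisons and by less than 0.1 in the other 5 examined. With no floor on levels, the counts were 2 lower in maturing, 2 higher in late erythroblast-like, 2 higher in mature osteoblast-like, 3 lower in chondrogenic, 4 past 2-fold in HC-derived immature and 1 higher in HC-like cells. With 10 CPM added, they were 0 higher and 0 lower in mature osteoblast-like, 0 lower in chondrogenic and 0 higher in immature osteoblast-like cells. The mean of each cell's CPM gave 6 lower in HC-like and 2 lower in chondrogenic cells. At most 5% mitochondrial UMIs and resolution 0.6 left osteoblast stages or early erythroid cells unnamed, so 5 comparisons had no value under each.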
